A study of Mus musculus with 24 samples.

Results

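The clustered protocadherins are cell-surface cadherins encoded side by side on mouse chromosome 18 in an alpha, a beta and a gamma cluster. All genes whose symbol is Pcdha, Pcdhac, Pcdhb, Pcdhga, Pcdhgb or Pcdhgc followed by a number were taken as members, which gave 58 of the 47069 genes listed. The alpha cluster held 14 members (12 alpha variable genes with Pcdhac1 and Pcdhac2), the beta cluster 22, and the gamma cluster 22 (12 gamma A, 7 gamma B, and Pcdhgc3, Pcdhgc4 and Pcdhgc5). Pcdhac1, Pcdhac2, Pcdhgc3, Pcdhgc4 and Pcdhgc5 are the 5 C-type members. In GRCm38 the locus runs from 36930184 to 37841873 on chromosome 18.

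Each alpha and gamma member has a promoter and a large variable exon of its own, which encodes the extracellular domain and is spliced to constant exons shared by the whole cluster. Beta members have no constant exons. The proteins bind identical proteins on other cells, and the mix of members chosen by promoter choice gives a neuron its surface identity, by which its branches recognise and avoid each other. A single neuron uses few of the variable promoters, while the C-type promoters are used more evenly among neurons. CTCF and cohesin bring a promoter to distant enhancers, and DNA methylation, Setdb1 and Smchd1 keep unused promoters silent. The product of Kdm5c, on the X chromosome, removes methyl groups from lysine 4 of histone H3, a mark of promoters.

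RNA of hippocampi from male mice aged 2 to 4 months was sequenced in 18 libraries, each from a pool of 3 mice, with 3 libraries in each of 6 groups. Untreated Kdm5c null mice (Kdm5c-/y, called KO) were compared with untreated wild-type (WT) mice, and KO mice given 1 h of novelty exploration, in a box with tubing and toys, with WT mice given the same. KO and WT mice were on a mixed F1 C57/129 background. Inducible forebrain knockouts (ifKO, Kdm5c f/f with CaMKIIα-creERT2, on C57BL/6J) were compared with mice labelled control, both untreated. CaMKIIα-creERT2 is a tamoxifen-dependent Cre recombinase that acts in excitatory forebrain neurons, so other cells of ifKO hippocampus keep Kdm5c. The labels used here do not say if the controls had Cre or were given tamoxifen.

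Counts assigned to genes ranged from 16.0 to 45.6 M per library. Levels are CPM, counts per M counts in genes after scaling with normalization factors. Kdm5c stood at 74.5 to 75.4 CPM in untreated KO and 73.4 to 75.5 CPM in untreated WT, 76.9 to 85.5 CPM in KO and 89.2 to 99.1 CPM in WT after novelty, and 65.0 to 70.6 CPM in ifKO and 63.4 to 68.9 CPM in control. A count over the whole gene does not show a deletion of some exons and so does not check these labels. Hippocampal dentate and pyramidal neuron markers summed to 683 to 844 CPM over all groups and serotonergic markers to 0.486 to 1.41 CPM, with Fev and Slc6a4 at 0 in some libraries. Choroid plexus markers summed to 612 CPM in untreated KO library 2 and to 402 CPM in 1 control library, against at most 78.9 CPM in the other libraries. Each library is a pool, so SD, SE and p-values measure the spread between pools.

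The constant exons decide what a count of a member means. A read in an exon shared by several genes is ambiguous to gene-level counting and is left out, so alpha and gamma counts come mainly from variable exons. The share of a member's exon bases that no other gene on the same strand covers was 90.3 to 100% in the beta cluster and 33.2 to 68.5% in the gamma cluster. In the alpha cluster it was 40.1 to 61.1% but for Pcdha4, of which only 494 bases (8.56%) are its own because the readthrough gene Gm42416 covers its variable exon. Gm42416, Gm37013, Gm37388 and Gm38182, which span the clusters and have no base of their own, had 0 counts over the 18 libraries. The 2613 exon bases of Pcdhga10 that no other gene on its strand covers all lie within its antisense gene Gm26672. Pcdhga10 still had 5.65 to 9.90 CPM, so reads were assigned by strand.

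A C-type member had the highest level in each of the clusters that hold them. On the scale of CPM per kb of own exon in untreated WT, Pcdhgc5, a C-type cadherin found at synapses of the postnatal forebrain, had 18.9 ± 0.74 (SD, n = 3) and Pcdhgc3, which promotes dendrite branching, 18.1 ± 1.27. Their spreads overlapped. Pcdhac2, which serotonergic axons need for even spacing, had 11.5 ± 0.98, above every other alpha member. Pcdhgc4, which inhibitory neurons need for survival in development, had 3.39 ± 0.24, below the median of the gamma A members. Pcdhac1 had 1.48 ± 0.06, above all alpha variable members but Pcdha12.

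Variable members differed by cluster. Median CPM per kb of own exon in untreated WT was 0.815 over the 12 alpha variable members, 1.32 over the 22 beta, 3.90 over the 12 gamma A and 2.66 over the 7 gamma B members. The highest after the C-type members were Pcdhga11 at 7.23 ± 0.23 in the gamma cluster, Pcdhb7 at 3.64 ± 0.38, Pcdhb9 at 3.47 ± 0.31 and Pcdhb17 at 3.26 ± 0.19 in the beta cluster, and Pcdha12 at 2.41 ± 0.21 in the alpha cluster. The 3 beta members overlapped in their spread. The lowest were Pcdhgb4 at 1.45 ± 0.32, Pcdhb1 at 0.076 ± 0.026, and Pcdha4, which had at most 1 count in a library and 0 in 16 of the 18. Pcdha8 had 0 to 14 counts and Pcdhb1 2 to 15 counts per library, so their levels are poorly known. With all merged exons as the length, the median of the alpha cluster was 0.375 (0.837 with own exons) and that of the gamma cluster 1.85 (3.43 with own exons), while the top 3 and the lowest member of each cluster kept their ranks.

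**Figure D1:**
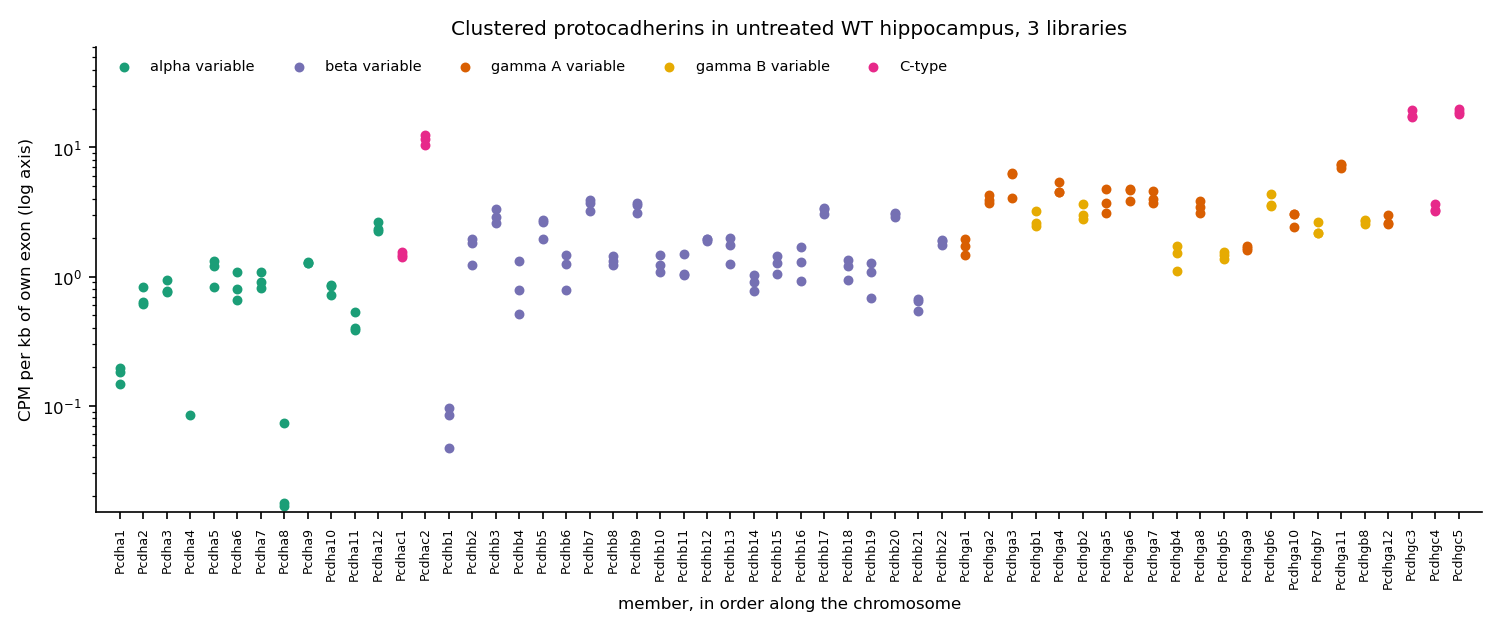
Level of each of the 58 members in untreated WT hippocampus as CPM per kb of own exon (log axis), 1 point per library, 3 libraries; members stand in their order along the chromosome and colours mark the class. Libraries with no count are not drawn (Pcdha4 in all but 1). Pcdhgc5 at 18.9, Pcdhgc3 at 18.1 and Pcdhac2 at 11.5 CPM per kb stand above the rest, and Pcdha4, Pcdha8 and Pcdhb1 below.

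Summed over its members, the gamma cluster was higher in untreated KO than in untreated WT, and higher in ifKO than in control. It held 351, 356 and 352 CPM in untreated KO, against 333, 337 and 338 CPM in untreated WT. It held 350, 360 and 351 CPM in ifKO, against 325, 333 and 336 CPM in control. Neither pair of groups overlapped. In the inducible line the sums of 7 inhibitory neuron markers, at 744 to 766 CPM in ifKO and 783 to 794 CPM in control, and of 7 hippocampal dentate and pyramidal neuron markers, at 695 to 735 CPM in ifKO and 737 to 750 CPM in control, did not overlap either, and their part in the gamma sums was not tested. After novelty the sums were 375, 363 and 357 CPM in KO and 388, 317 and 339 CPM in WT, which overlapped.

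The alpha sums averaged 61.7 ± 1.01 CPM in untreated KO and 62.8 ± 3.69 CPM in untreated WT, and 65.5 ± 1.47 CPM in ifKO and 65.4 ± 2.09 CPM in control (SD, n = 3 each). The beta sums averaged 162 ± 9.33 CPM in untreated KO and 152 ± 16.6 CPM in untreated WT, and 195 ± 9.57 CPM in ifKO and 197 ± 3.46 CPM in control. In all 4 of these pairs the libraries overlapped. After novelty KO library 2 had 77.5 CPM of alpha and 184 CPM of beta, the highest alpha sum of the 18 libraries. Sums over chosen members are given without a test.

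Pcdhgc5 made up much of the gamma difference between untreated groups. Without it the gamma sum was 253 ± 3.12 CPM in untreated KO and 249 ± 2.49 CPM in untreated WT, and the libraries overlapped. In the inducible line the rest of the cluster still did not overlap, with 254 to 262 CPM in ifKO and 239 to 249 CPM in control. The C-type members together held 36.1% of the counts of all members both in untreated KO and in untreated WT.

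**Figure D2:**
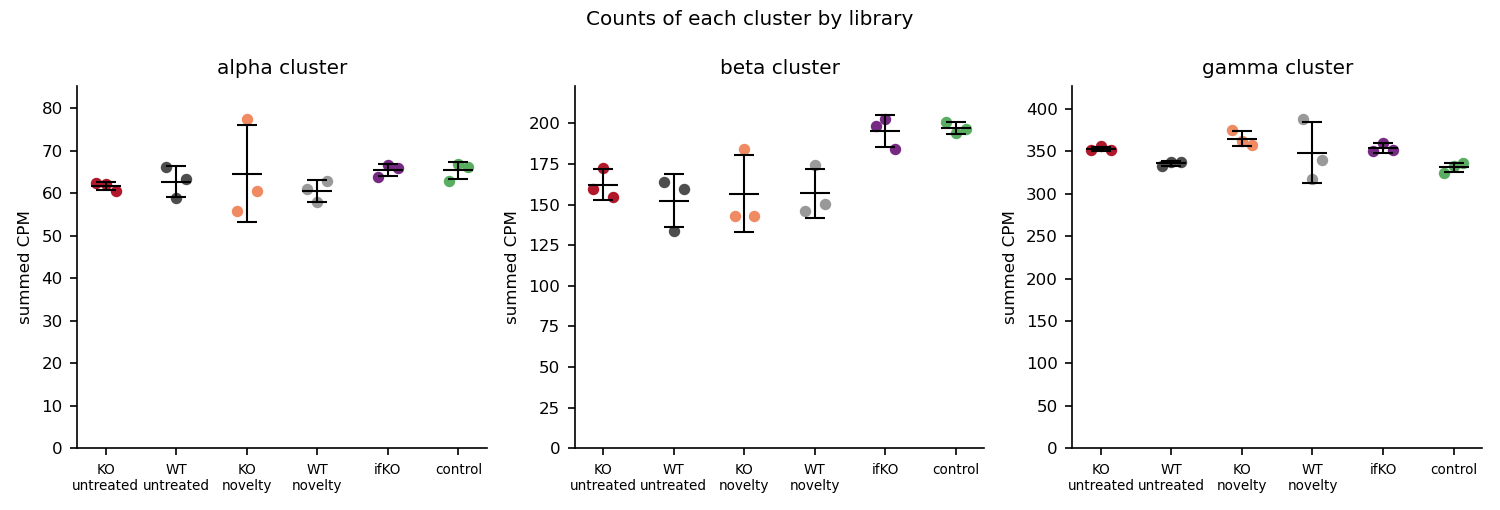
Summed CPM of the alpha, beta and gamma members by library in the 6 groups; points are libraries, the bar is the mean and the error bar the SD (n = 3 pools). Gamma sums do not overlap between untreated KO (351 to 356 CPM) and untreated WT (333 to 338 CPM) or between ifKO (350 to 360 CPM) and control (325 to 336 CPM); alpha and beta sums overlap in each pair.

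KO was compared with WT over both treatments, to ask which members differ when Kdm5c is missing throughout life. Pcdhga1 and Pcdhga12, gamma A members at the first and the last gamma A promoter of the cluster, were higher in KO, and no member was lower. These 2 of 55 tested members passed an adjusted p of 0.05 in edgeR's quasi-likelihood test, against a background of 2.81% of all genes tested in either direction and 2.32% higher, which is a like share. The median log2 fold change was 0.00 over the 55 members and 0.00 over all genes. Pcdha4, Pcdha8 and Pcdhb1 had too few counts to be tested.

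Pcdhga1 (chromosome 18, 37661793 to 37841873) had 8.97, 7.58 and 7.62 CPM in untreated KO, against 6.34, 4.80 and 5.64 CPM in untreated WT. After novelty it had 8.95, 10.1 and 8.19 CPM in KO, against 7.17, 6.74 and 6.48 CPM in WT. Every KO library lay above every WT library within a treatment and across treatments. The log2 fold change over both treatments was 0.48 ± 0.09 (SE, adjusted p = 0.00711). The 6 WT libraries were also below all 6 libraries of the inducible line, which had 9.84, 10.1 and 8.36 CPM in ifKO and 8.23, 9.24 and 8.30 CPM in control.

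Pcdhga12 (chromosome 18, 37765580 to 37841873) had 15.4, 16.0 and 16.6 CPM in untreated KO, against 11.8, 13.7 and 11.7 CPM in untreated WT. After novelty it had 17.98, 17.4 and 15.6 CPM in KO, against 14.2, 11.7 and 14.9 CPM in WT. The groups did not overlap in either treatment. Its log2 fold change over both treatments was 0.35 ± 0.07 (adjusted p = 0.0192). Leaving out untreated KO library 3, untreated WT library 1, untreated WT library 3 or KO novelty library 1 raised the adjusted p to between 0.0594 and 0.0680, with a fold change of 0.32 to 0.33. Pcdhga1 passed without any single library (adjusted p between 0.00800 and 0.0331).

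Antisense genes overlap both members. Gm37118, antisense to Pcdhga1, had at most 0.0432 CPM. Gm26672, antisense to Pcdhga12, had 0.798 to 2.32 CPM and a log2 fold change of -0.21 ± 0.19 (adjusted p = 0.749). The next members by p were Pcdhga3 at 0.36 ± 0.10 (adjusted p = 0.0766), Pcdhgc5 at 0.15 ± 0.05 (adjusted p = 0.139) and Pcdhgc4 at -0.27 ± 0.09 (adjusted p = 0.175), which did not pass. Pcdhga3 passed with DESeq2 (adjusted p = 0.0312), with no filter on low counts (0.00569) and with GC and length offsets (0.0379). Pcdhgc4 passed without KO novelty library 2 (0.0481).

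Cell type markers moved with genotype beside these calls. Of 6 oligodendrocyte markers Mbp was lower in KO over both treatments. The list summed to 2782 to 3262 CPM in untreated KO and 3634 to 4005 CPM in untreated WT. After novelty it summed to 2897 to 3299 CPM in KO and 3067 to 3549 CPM in WT. Of these 6 markers 0 had fold changes above 0 in untreated KO, and 4 after novelty (median log2 fold change 0.07). Of 6 astrocyte markers Gfap was higher, with sums of 2375 to 2443 CPM in untreated KO and 2160 to 2239 CPM in untreated WT, and of 2236 to 2504 CPM in KO and 2197 to 2217 CPM in WT after novelty. Of 6 microglial markers Siglech was higher, with sums of 372 to 401 CPM in untreated KO and 350 to 359 CPM in untreated WT. After novelty these sums were 307 to 365 CPM in KO and 344 to 347 CPM in WT. Of the 6 microglial markers 5 had fold changes above 0 in untreated KO, but only 2 after novelty (median log2 fold change -0.03). Of 7 inhibitory neuron markers Pvalb was lower, while 4 of the 7 had fold changes above 0 over both treatments (median log2 fold change 0.08). In untreated KO 1 of the 7 was above 0, and after novelty 5 of the 7 were. Their sums were 589 to 657 CPM in untreated KO and 664 to 747 CPM in untreated WT. After novelty they were 631 to 804 CPM in KO and 625 to 694 CPM in WT. Of 6 meningeal fibroblast markers Ogn and Lum were lower, with sums of 89.4 to 92.2 CPM in untreated KO and 98.5 to 127 CPM in untreated WT, and of 76.0 to 108 CPM in KO and 86.0 to 108 CPM in WT after novelty. None of 7 markers of hippocampal dentate and pyramidal neurons was called, with sums of 704 to 789 CPM in untreated KO and 723 to 789 CPM in untreated WT. After novelty these sums were 683 to 734 CPM in KO and 743 to 844 CPM in WT, without overlap. No marker of the first 5 lists was at 0. In bulk tissue fewer cells of a type and less RNA per cell cannot be told apart, and the part of these shifts in the protocadherin values was not tested. Without untreated KO library 2, where choroid plexus markers summed to 612 CPM, both members still passed (adjusted p = 0.0116 for Pcdhga1 and 0.0462 for Pcdhga12). Untreated KO libraries 1 and 3 had choroid plexus sums of 77.4 and 56.97 CPM, also above the 36.3 to 43.4 CPM of untreated WT. Leaving out library 2 therefore does not remove this difference, and its part in both calls was not tested. After novelty the choroid plexus sums of KO and WT overlapped.

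**Figure D3:**
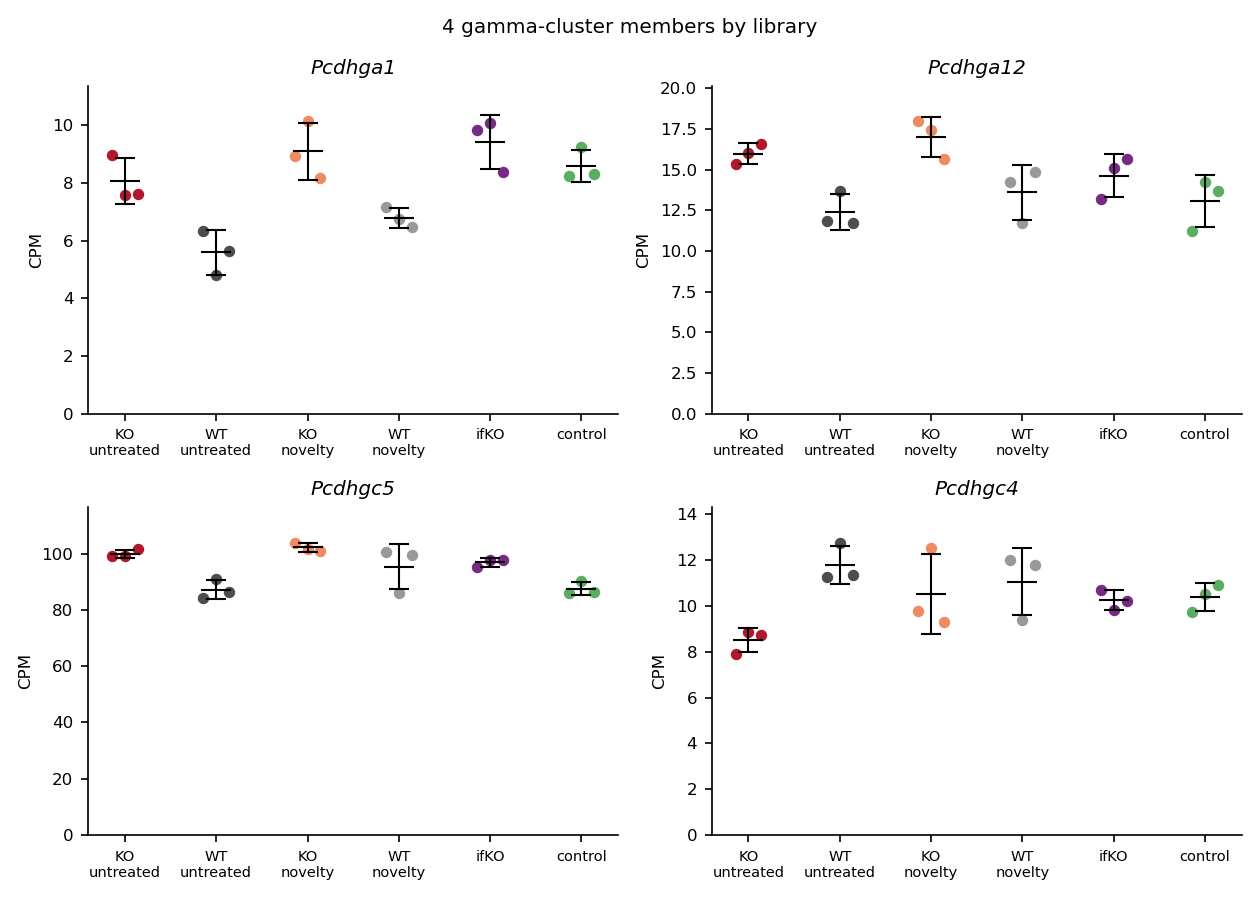
CPM of Pcdhga1, Pcdhga12, Pcdhgc5 and Pcdhgc4 in each library of the 6 groups; points are libraries, the bar is the mean and the error bar the SD (n = 3 pools). Pcdhga1 lies at 7.58 CPM or above in every KO library and at 7.17 CPM or below in every WT library, and Pcdhgc4 is lower in untreated KO (8.49 CPM on average) than in untreated WT (11.8 CPM) without overlap.

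Within untreated mice alone, no member of 55 passed (background 1.24%), while 6 had an unadjusted p under 0.05 and were higher in KO and 2 were lower (backgrounds 5.01% and 3.64%). DESeq2 called 1 member, Pcdhga1. In edgeR Pcdhga1 had the smallest adjusted p, at 0.54 ± 0.13 (adjusted p = 0.0616). Libraries of the groups did not overlap for 10 members, 6 higher and 4 lower in KO, against 21.0% of all genes. Of these 10, 9 were gamma members and the other was Pcdha1, the first of the alpha cluster. The log2 fold changes of all 55 ran between -0.48 and 0.71 with a median of 0.04.

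Pcdhgc4 was the member with the lowest fold change. It had 7.89, 8.86 and 8.73 CPM in untreated KO, against 11.3, 12.8 and 11.3 CPM in untreated WT, and the groups did not overlap. The log2 fold change was -0.48 ± 0.13 (adjusted p = 0.124). It passed in fits with only the 6 untreated libraries (adjusted p = 0.0264), with no filter on low counts (0.0390) and without KO novelty library 2 and WT novelty library 1 (0.0253), so its call rests on the fit.

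Pcdhgc5 had 99.1, 99.2 and 102 CPM in untreated KO, against 84.1, 90.9 and 86.4 CPM in untreated WT, with no overlap. Its log2 fold change was 0.20 ± 0.07 (adjusted p = 0.304). Of the other C-type members, Pcdhgc3 averaged 61.7 ± 1.40 CPM in untreated KO and 61.2 ± 4.30 CPM in untreated WT (SD, n = 3 each). Pcdhac2 averaged 34.6 CPM in untreated KO and 34.9 CPM in untreated WT, and Pcdhac1 3.56 CPM in untreated KO and 3.78 CPM in untreated WT. The libraries of all 3 overlapped between these groups.

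The 3 gamma A members at the start of the gamma cluster, singled out after their values were seen, were all higher without overlap in untreated KO. Beside Pcdhga1, Pcdhga2 had a log2 fold change of 0.27 ± 0.12 and Pcdhga3 of 0.40 ± 0.14, neither past the threshold. For Pcdhga2 the groups nearly touched, with 11.05 CPM in the lowest untreated KO library and 11.04 CPM in the highest untreated WT library. Pcdhga3 had 18.6, 20.1 and 18.3 CPM in untreated KO, against 16.2, 10.6 and 16.5 CPM in untreated WT, where library 2 was low. Pcdhga9 and Pcdhga10, further along the cluster, were lower in untreated KO at -0.28 ± 0.16 and -0.34 ± 0.16, also without overlap and not past the threshold.

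**Figure D4:**
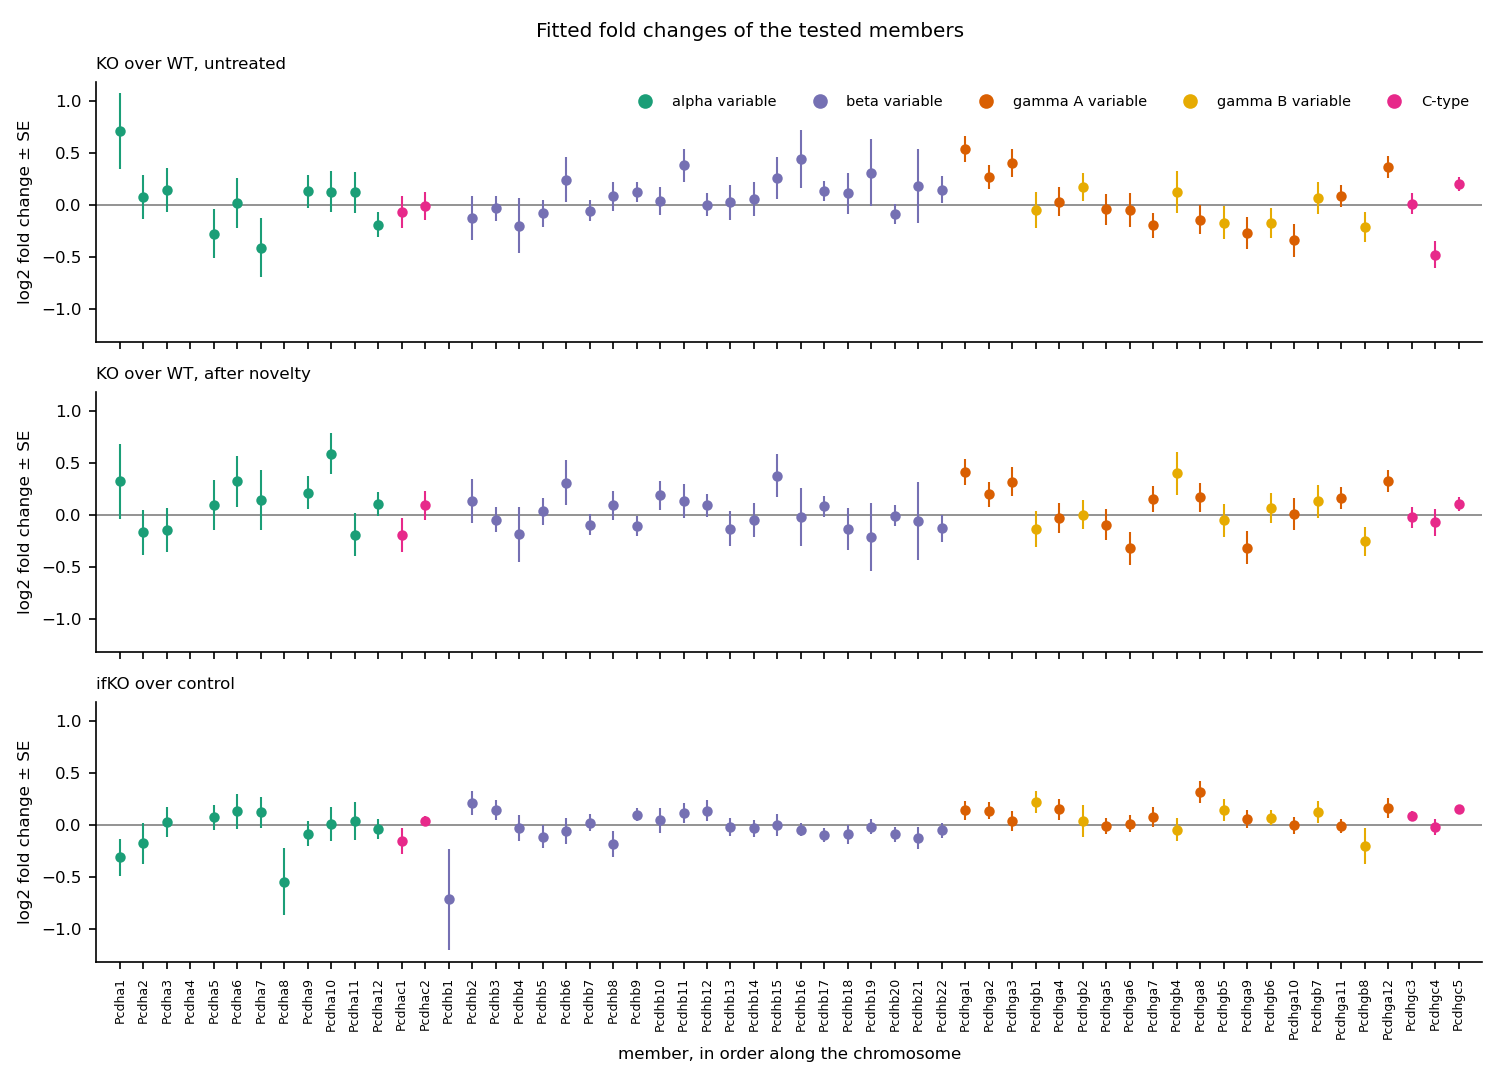
Fitted log2 fold change with SE of each tested member for KO over WT untreated, KO over WT after novelty and ifKO over control, in order along the chromosome and coloured by class. Pcdhga1 (0.54 and 0.42) and Pcdhga12 (0.36 and 0.33) lie above 0 in both KO comparisons and at 0.14 and 0.17 in ifKO; Pcdhgc4 is at -0.48 in untreated KO, -0.07 after novelty and -0.02 in ifKO.

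After novelty, KO was set against WT in the same way. No member of 55 passed (background 1.34%), 4 had an unadjusted p under 0.05 and were higher and 0 were lower (backgrounds 5.99% and 2.74%), and DESeq2 called 0. Pcdhga1 again had the smallest adjusted p (0.42 ± 0.12, adjusted p = 0.182), followed by Pcdhga12 (0.33 ± 0.10, adjusted p = 0.231, and 0.22 without WT library 2). Libraries did not overlap for 7 members, 6 higher and 1 lower, against 11.3% of all genes. These libraries are separate from those of the untreated comparison.

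Pcdhgc5 had 104, 102 and 101 CPM in KO after novelty, against 100, 86.0 and 99.3 CPM in WT, which did not overlap but came within 1 CPM of each other. Its log2 fold change was 0.10 ± 0.07 (adjusted p = 0.782). Pcdhgc4 averaged 10.5 ± 1.74 CPM in KO and 11.0 ± 1.46 CPM in WT (SD, n = 3 each), and overlapped. The smooth dependence on GC content and length, fitted per library, predicts a mean log2 shift of -0.13 for beta members in WT library 1, against -0.05 to 0.07 in the other 11 KO and WT libraries. For gamma members it predicts -0.06 to 0.07 over all 12. Without KO library 2 and WT library 1, left out together because of earlier results of these data, Pcdhga11 passed in this comparison (0.33 ± 0.08, adjusted p = 0.0423), and over both treatments Pcdhga1, Pcdhga12, Pcdhgc5 and Pcdhga11 did.

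Novelty itself was compared with untreated mice of the same genotype, 1 h being within the time in which immediate early genes respond. No member of 55 passed in WT (background 0.384%), in KO (background 0.110%) or over both genotypes (background 1.35%), and DESeq2 called 0 in each. At an unadjusted p under 0.05 there were 1 higher and 2 lower in WT (background 11.0% in either direction), 2 higher and 0 lower in KO (6.71%), and 1 higher and 1 lower over both genotypes (13.5%). In WT, the libraries of 4 members did not overlap, against 15.9% of all genes.

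Pcdhb20 had the smallest adjusted p in WT (-0.23 ± 0.10, adjusted p = 0.407) and over both genotypes (-0.19 ± 0.07, adjusted p = 0.243). It had 8.61, 10.3 and 8.54 CPM in WT after novelty, against 11.1, 10.9 and 10.3 CPM in untreated WT. The groups came close without overlap. In KO the smallest was that of Pcdhga10 (0.38 ± 0.16, adjusted p = 0.695), which had 6.45, 9.90 and 6.70 CPM in KO after novelty, against 5.92, 6.03 and 5.65 CPM in untreated KO. The value of 9.90 CPM is that of library 2, and the groups did not overlap.

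The interaction of genotype and novelty called no member (background 0.00%, 1 member higher and 0 lower at an unadjusted p under 0.05 against a background of 3.43%, and 0 by DESeq2). Pcdhgc4 came first, with a KO effect after novelty above that in untreated mice by 0.41 ± 0.18 on the log2 scale (adjusted p = 0.9999).

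In the inducible line, where Kdm5c is deleted in excitatory neurons of the adult forebrain, no member of 57 passed (background 0.645%). In edgeR 2 members had an unadjusted p under 0.05 and were higher and 0 were lower (backgrounds 4.45% and 2.19%), and DESeq2 called 0. Libraries did not overlap for 4 members, 2 higher and 2 lower, against 11.9% of all genes.

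Pcdhgc5 had the smallest adjusted p. It had 95.2, 97.7 and 97.7 CPM in ifKO, against 85.9, 90.2 and 86.3 CPM in control, without overlap, and a log2 fold change of 0.15 ± 0.04 (adjusted p = 0.151). Pcdhga8 had 14.5, 12.3 and 11.1 CPM in ifKO, against 10.9, 8.80 and 10.8 CPM in control (0.32 ± 0.11, adjusted p = 0.498), again without overlap. With no filter on low counts Pcdhga8 passed (adjusted p = 0.0201).

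The members that were called in KO did not pass in ifKO. Pcdhga1 had a log2 fold change of 0.14 ± 0.09 (adjusted p = 0.866) and Pcdhga12, at 13.2, 15.1 and 15.6 CPM in ifKO and 11.2, 14.2 and 13.7 CPM in control, of 0.17 ± 0.10 (adjusted p = 0.838). Both overlapped. Single libraries moved these values: Pcdhga1 was at 0.09 without ifKO library 2 and 0.21 without ifKO library 3, and Pcdhga12 at 0.07 without control library 1, 0.11 without ifKO library 3 and 0.24 without ifKO library 1. Pcdhgc4 had 10.7, 9.84 and 10.2 CPM in ifKO and 9.74, 10.5 and 10.9 CPM in control (-0.02 ± 0.08).

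The difference between both mutants was tested itself, as the untreated KO effect minus the ifKO effect in a fit of the 18 libraries. No member of 56 passed (background 0.114%, 2 higher and 2 lower at an unadjusted p under 0.05 against a background of 4.00%, and 0 by DESeq2). Pcdhgc4 came first at -0.46 ± 0.16 (adjusted p = 0.824), and Pcdhga1 had 0.41 ± 0.16, so neither is shown to differ between the mutants. For Pcdhgc5 the difference was 0.05 ± 0.08.

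Both lines were then set side by side, which compares libraries that differ in strain, read layout and flowcell at once. Members whose 6 inducible-line libraries did not overlap the 12 KO and WT libraries numbered 5 of 56, 4 higher and 1 lower in the inducible line, against 21.5% of all genes. Pcdhgb8, annotated as a polymorphic pseudogene, a class for genes that are intact in some strains only, averaged 1.35 ± 0.15 CPM in the inducible line (SD, n = 6) and 6.16 ± 0.84 CPM in the KO and WT line (SD, n = 12), a 4.57-fold lower level. Its 6 inducible-line libraries ran between 1.20 and 1.59 CPM and the others between 4.37 and 7.86 CPM. Of the 56 tested members Pcdhgb8 was the only one with means over 2-fold apart, against 8.84% of all genes tested.

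The 4 members that were higher in the inducible line were all beta. Pcdhb16 averaged 14.9 ± 0.66 CPM in the inducible line and 8.26 ± 2.34 CPM in the KO and WT line (1.80-fold). Pcdhb9 averaged 20.2 ± 1.15 CPM in the inducible line and 11.4 ± 0.87 CPM in the KO and WT line (1.78-fold). The same comparison gave 9.13 ± 0.97 CPM in the inducible line and 5.98 ± 0.42 CPM in the KO and WT line for Pcdhb12. For Pcdhb14 it gave 12.5 ± 0.86 CPM in the inducible line and 8.21 ± 1.14 CPM in the KO and WT line. Median log2 differences between the lines were 0.31 over 22 beta, 0.08 over 12 alpha and -0.01 over 22 gamma members. Strain, reads of paired 75 nt against single 50 nt, and flowcell cannot be told apart here.

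**Figure D5:**
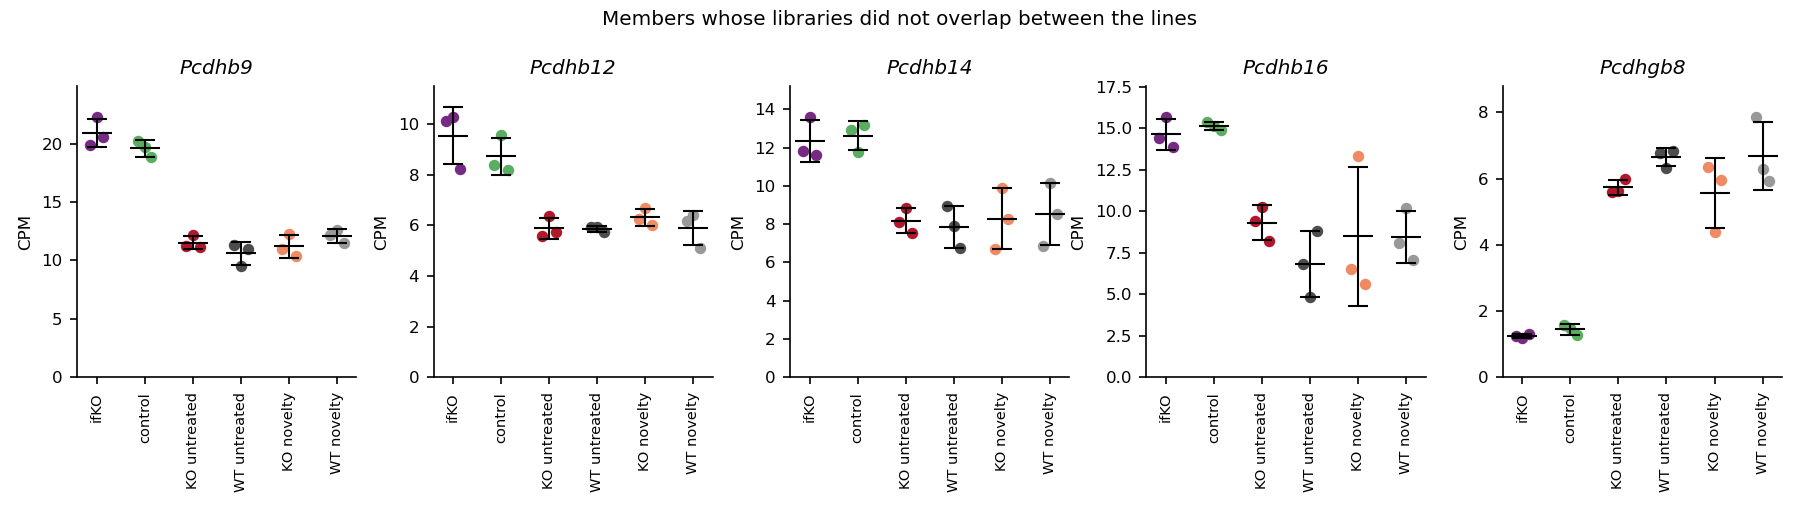
CPM of the 5 members whose libraries did not overlap between the inducible line (ifKO and control) and the KO and WT line; points are libraries, the bar is the mean and the error bar the SD (n = 3 pools). Pcdhgb8 averages 1.35 CPM in the inducible line and 6.16 CPM in the KO and WT line, and the 4 beta members are 1.52-fold to 1.80-fold higher in the inducible line.

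The members had a higher median spread between pools than other genes within the members' range of levels, which is given here without a test. That range ran from 0.71 to 97.3 CPM in the KO and WT line, and levels were not matched within it. The biological coefficient of variation fitted by edgeR had a median of 11.4% over 55 members in the KO and WT line, against 8.94% over 12805 other genes whose mean level lay within the members' range. In the inducible line the medians were 7.47% over 57 members and 6.94% over other genes. The most variable members in the KO and WT line, seen only in these values, were the beta genes Pcdhb21 (29.5%), Pcdhb19 (27.3%) and Pcdhb16 (23.3%). Pcdhb19 had 5.12, 13.2 and 5.26 CPM in KO after novelty, against 7.24, 11.8 and 7.65 CPM in WT after novelty. In each group library 2 lay far above the others, and it was also the highest of its group for Pcdhb21 and Pcdhb16. For beta members the dependence on GC content and length predicts mean log2 shifts of 0.07 in that KO library and 0.06 in that WT library. Its part in this spread was not tested.

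Genes that act with the clustered protocadherins were not called. Of 12 genes of CTCF, cohesin and promoter choice, 12 genes of silencing at the locus and 18 signalling partners of the cytoplasmic domains, all were tested and 0 passed in any of the 9 comparisons by edgeR. The backgrounds over all genes in these comparisons ran from 0.00 to 2.81%. In untreated KO the median log2 fold change over WT was 0.05 for the first, -0.01 for the second and 0.06 for the third list. Of their genes 0, 0 and 1 had an unadjusted p under 0.05 (backgrounds 5.01% higher and 3.64% lower). In KO after novelty 11 of the 12 genes of the second list had fold changes below 0 and 1 above, with a median of -0.07. Over both treatments 9 were below 0 and 3 above, with a median of -0.05. Neither comparison had a gene of this list at an unadjusted p under 0.05. In ifKO 10 of the 12 genes of the first list had fold changes below 0 and 2 above, with a median of -0.03. At an unadjusted p under 0.05, 2 were lower and 0 higher (backgrounds 2.19% and 4.45%). Without overlap 4 were lower and 0 higher, against 11.9% of all genes in either direction. Of the genes within 500 kb of the locus, or between its clusters, 32 of 65 listed were tested in the KO and WT line and 0 passed, with a median of -0.04 in untreated KO and 0 at an unadjusted p under 0.05.

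The 12 non-clustered protocadherins, related adhesion proteins encoded by single genes (of which Pcdh1 and Pcdh12 are also among the genes near the locus), were all tested and 0 passed in any comparison. Log2 fold changes were above 0 for 11 of 12 in untreated KO and for 11 of 12 in KO after novelty, against 50.5% and 50.6% of all genes, with medians of 0.18 and 0.14. In untreated KO 5 of the 12 were higher without overlap, against 11.7% of all genes. After novelty 1 of the 12 was higher in KO without overlap and 0 were lower, against 11.3% of all genes in either direction. In ifKO 6 of 12 were above 0, against 50.6% of all genes, with a median of 0.01.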

How the data were processed

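Hippocampal mRNA was measured in 18 libraries, and 24 sample records describe them because each inducible-line library has a record for either read. Each deposited file gives unnormalized counts by Ensembl gene ID. The submitters' processing notes name GRCm38, HTSeq 0.6.1, STAR 2.5.0c, SAMtools 1.3 and DESeq2, but no strand setting or annotation release. Per the labels' protocols libraries were stranded.

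Symbols and exons came from GENCODE M21 for 46574 of 47069 genes. Of 2 genes named Pcdha11 there, ENSMUSG00000007440 was called Pcdha10 by its RefSeq start, 117 bases away. The members and lists were chosen with earlier results of these data known. By rule, all members past the threshold, the member with the smallest p in each comparison, the C-type members, and the 3 highest and the lowest of each cluster were named. Other members, such as Pcdha1, Pcdhga2, Pcdhga8, Pcdhga9, Pcdhgb8, Pcdhb16 and Pcdhb19, were named for their values.

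Counts were fitted in R 4.3.3 with edgeR 4.0.16 (TMM factors, filterByExpr with minimum count 10 and total 15, quasi-likelihood test, Benjamini-Hochberg over all genes tested, prior count 0.125). The SE of a log2 fold change was derived from this test, as its absolute value divided by the square root of the F statistic. The KO and WT libraries (12), the inducible line (6) and all 18 were fitted separately, with 16392, 17367 and 17508 genes tested. Ambiguous reads were 0.765 to 1.06% and reads in no feature 14.7 to 17.2%. No libraries held identical counts. Methods were tested on simulated counts. Alternatives were DESeq2 1.42.0, RLE factors, other filters, a replicate block, offsets for GC content and length, and libraries left out.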

Additional observations from a re-analysis of the deposited data

Results flagged for a closer look

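Pcdha1, the first alpha member, lay above WT in untreated KO and below control in ifKO, without overlap of libraries in either pair. It had 0.649, 0.868 and 0.702 CPM in untreated KO, against 0.366, 0.484 and 0.457 CPM in untreated WT, a log2 fold change of 0.71 ± 0.37 (edgeR, adjusted p = 0.650). It had 1.05, 0.957 and 1.01 CPM in ifKO, against 1.16, 1.34 and 1.25 CPM in control, a log2 fold change of -0.31 ± 0.18 (adjusted p = 0.820). The difference between both effects was 1.02 ± 0.39 and did not pass (adjusted p = 1.00). Pcdha1 had 6 to 54 counts per library, so counting error is a large part of these values.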

How the results depend on the processing

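The count of called members changed with settings. In untreated KO against WT it was 0, and 1 with DESeq2, 1 with only the groups compared, 1 with offsets for GC content and length, 2 with no low-count filter and 2 without KO novelty library 2 and WT novelty library 1. After novelty it was 0, and 1 without those libraries. Over both treatments it was 2, and 3 with DESeq2 and 3 with no filter (both adding Pcdhga3), 4 with offsets (adding Pcdhgc5 and Pcdhga3) and 4 without those libraries (adding Pcdhgc5 and Pcdhga11). In ifKO it was 0, and 1 with no filter. Leaving out single libraries gave 1 to 3 over both treatments. The cause was not tested. Direction was followed only for the called members and for the member with the smallest p in each comparison. No fold change among these turned its direction. Without normalization factors the gamma sums were 355 CPM in untreated KO and 346 CPM in untreated WT, 346 CPM in ifKO and 324 CPM in control, and the beta sum of control was 193 CPM. With all merged exons the alpha and gamma medians were 0.375 and 1.85 CPM per kb.

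Pcdhga1 passed over both treatments in every setting run. With the replicate number as a block, Pcdhga1 (adjusted p = 0.0107) and Pcdhga12 (0.0453) were called there and 0 members elsewhere. Deviations from the group means correlated at -0.24 to 0.29 between samples of like number, with the highest between library 2 of KO and of WT after novelty. Samples of unlike number were not compared, so these values cannot show if like numbers belong together. Depth limits Pcdha4, Pcdha8 and Pcdhb1, and 3 pools per group limit small changes.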
